A study of Mus musculus with 6 samples.

Results

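The genes described here break down amino acids and turn the released nitrogen into urea in the liver. The list names 42 genes, chosen by their function, of which 40 had a probe set assigned to 1 gene symbol and were measured. Sds and Gls2 were not analysed here. All 40 were above the floor signal of 221.4 on all 6 arrays, where the floor is the 50th percentile of all values. The whole series held 18194 genes with such a probe set, and 13989 of them exceeded that floor on 1 array or more.

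Liver RNA of male C57BL6/J mice was hybridised to mouse expression arrays, with 6 groups and 1 array per group, each array holding RNA pooled from 3 to 4 livers. In the 2-month study, 1 group ate fast food with canertinib mixed into it at 80 mg/kg per day, another ate fast food alone and the last ate standard chow. In the 5-month study, 1 group ate fast food and received canertinib by intraperitoneal injection at 80 mg/kg on 5 days per week for the last 5 weeks, another ate fast food and received the PBS vehicle, and the last ate chow, for which the labels name no injection. The fast food held 21% fat by weight, 34% sucrose and 0.2% cholesterol, with 18.9 g/L glucose and 23.1 g/L fructose in the drinking water, and mice were 6 to 8 weeks old at the start. Canertinib blocks the ErbB receptor tyrosine kinases, EGFR among them, by binding them irreversibly. Route, duration and vehicle differ between the studies, so time and mode of dosing cannot be told apart. Within a study no group had a replicate, so differences between arrays carry no test there. Pooling averages the animals before hybridisation, and the spread between animals is not measured. In pooled bulk RNA, fewer hepatocytes and less RNA per hepatocyte cannot be told apart.

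Hepatocytes remove the amino group of amino acids by transamination or deamination, and periportal hepatocytes channel the resulting ammonia into the urea cycle. The carbon skeletons enter gluconeogenesis, ketogenesis or the tricarboxylic acid cycle. The methionine cycle supplies S-adenosylmethionine for methylation and feeds transsulfuration, which makes cysteine.

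Against fast food alone, canertinib went with higher signals for most of the listed genes, and the cytosolic aspartate aminotransferase Got1 stood highest among the probe sets that stand for the 40 genes. At 2 months, 3 of 40 genes were at least 2-fold higher on the canertinib array, where 3.55% of all measured genes were, and 0 were at least 2-fold lower, where 3.26% were. At 5 months, 1 of 40 was at least 2-fold higher, against 2.19% of measured genes, and 0 were at least 2-fold lower, against 2.73%. Higher by any amount were 24 of 40 at 2 months, against 46.3% of measured genes, and 34 of 40 at 5 months, against 45.3%, which leaves 16 lower at 2 months, against 46.6%, and 6 at 5 months, against 46.5%. At least 1.5-fold higher were 9 genes at 2 months, against 10.9%, and 14 at 5 months, against 8.22%. At least 1.5-fold lower were 3 genes at 2 months, against 10.6%, and 1 at 5 months, against 9.25%. The median log2 difference over the 40 genes was 0.16 at 2 months and 0.35 at 5 months, and that over all measured genes was 0 at both times. A measure of RNA quality moved with canertinib: the beta-actin 3′ minus 5′ control difference in log2 was 1.19 with canertinib, 0.85 with fast food and 0.94 with chow at 2 months, and 1.12 with canertinib, 0.98 with fast food and 0.85 with chow at 5 months. That of Gapdh was -0.20 with canertinib, -0.30 with fast food and -0.18 with chow at 2 months, and -0.14 with canertinib, -0.22 with fast food and -0.09 with chow at 5 months. Their part in the differences was not tested.

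Fast food against chow gave different pictures at the 2 times. In the 5-month study the fast-food group also received PBS injections, and the labels name none for chow. Diet and injection therefore cannot be told apart at 5 months. At 2 months 0 of 40 genes were at least 2-fold higher on the fast-food array, against 1.98% of measured genes, and 2 were at least 2-fold lower, against 1.55%. At 5 months 0 were at least 2-fold higher, against 2.72%, and 7 were at least 2-fold lower, against 1.83%. Lower by any amount were 12 of 40 at 2 months, against 46.6% of measured genes, and 37 of 40 at 5 months, against 49.1%, and higher were 28 at 2 months, against 45.5%, and 3 at 5 months, against 43.0%. At least 1.5-fold lower were 2 genes at 2 months, against 7.01%, and 18 at 5 months, against 7.57%. At least 1.5-fold higher were 3 genes at 2 months, against 7.51%, and 1 at 5 months, against 8.45%. The median log2 difference was 0.12 at 2 months and -0.56 at 5 months. The comparison of canertinib with fast food and that of fast food with chow share the fast-food array of their study, so a low value on that array moves both in opposite directions.

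**Figure D1:**
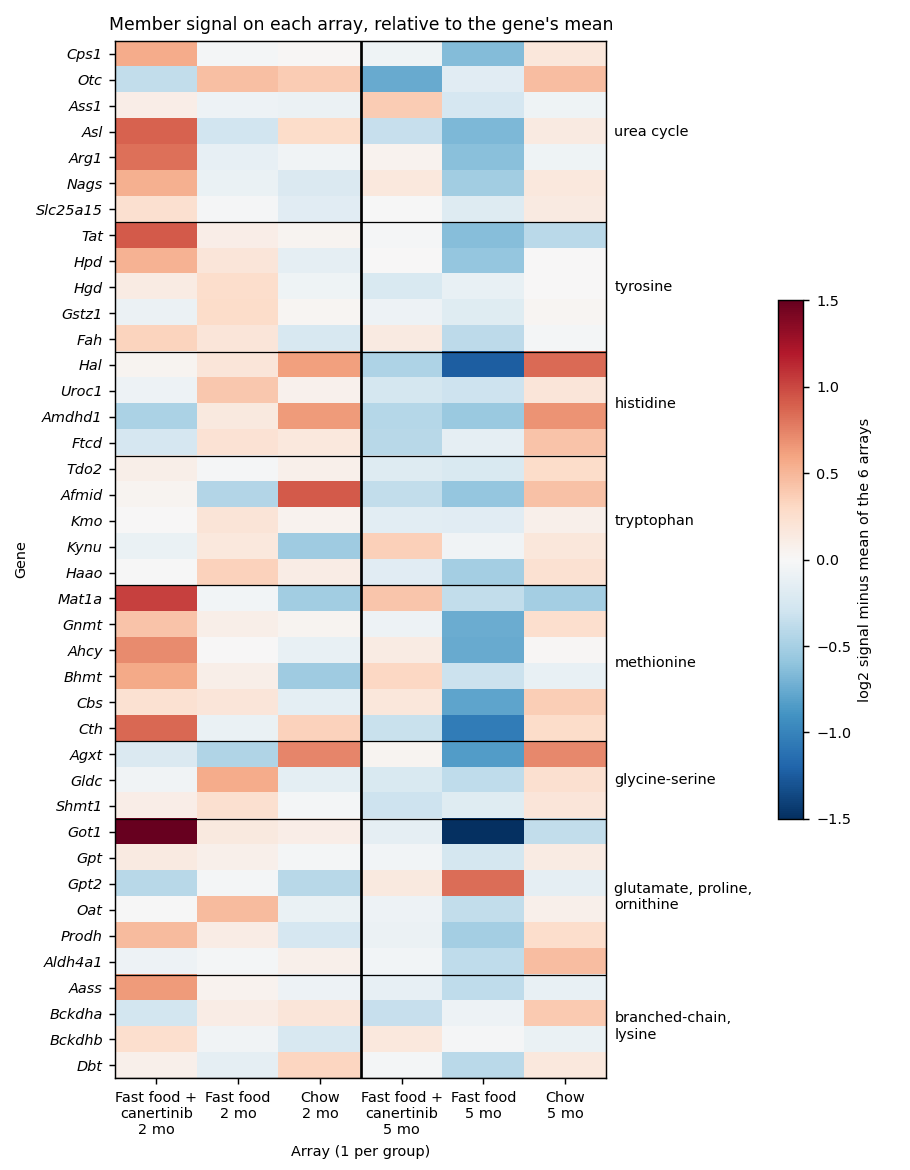
Log2 signal of each of the 40 genes (rows, by pathway) on the 6 arrays (columns), minus the gene's mean over the 6, with red above and blue below that mean. On the 5-month fast-food array 32 of the 40 genes have their lowest signal of that study, a count not taken over all measured genes.

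In the 5-month study the fast-food array gave the lowest of the 3 signals for 32 of 40 genes, the canertinib array for 5 and the chow array for 3. The chow array gave the highest for 28, the canertinib array for 11 and the fast-food array for 1. In the 2-month study the canertinib array was highest for 21 genes, the fast-food array for 12 and the chow array for 7. These orders were not counted over all measured genes, so no share stands beside them.

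Canertinib with fast food against chow showed no common direction. At 2 months 3 of 40 genes were at least 2-fold higher on the canertinib array, against 3.8% of measured genes, and 1 was at least 2-fold lower, against 2.74%. At 5 months 0 were at least 2-fold higher, against 2.82%, and 3 were at least 2-fold lower, against 2.72%. At least 1.5-fold higher were 11 genes at 2 months, against 10.6%, and 1 at 5 months, against 8.92%. At least 1.5-fold lower were 4 genes at 2 months, against 10.1%, and 8 at 5 months, where 1402 of the 13989 measured genes were. Higher by any amount were 26 at 2 months, against 45.2%, and 12 at 5 months, against 43.3%, and lower were 14 at 2 months, against 48.4%, and 28 at 5 months, against 48.4%. The median log2 difference was 0.19 at 2 months and -0.22 at 5 months.

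One fit took both studies together, with treatment and study as terms, and left 2 residual degrees of freedom. It treats the studies as repeats although dosing differed. In limma with Benjamini-Hochberg adjustment over all measured genes, 0 of the 40 genes passed in any of the 3 contrasts. For canertinib against fast food, where 0.407% of measured genes were called higher and 0.307% lower, the lowest adjusted p was 0.155, for Got1, and 8 genes were higher and 2 lower at an unadjusted p under 0.05, against 7.24% and 7.53% of measured genes. For fast food against chow, where 0.0286% were called higher, the lowest adjusted p was 0.117, for Afmid, and 1 gene was higher and 7 lower at that unadjusted p, against 5.43% and 4.44%. For canertinib against chow, where 0.558% were called higher and 0.207% lower, the lowest adjusted p was 0.0938, for Afmid, and 4 genes were higher and 7 lower at that unadjusted p, against 7.88% and 7.72%. A repeat of the limma fit over only genes above the floor on all 6 arrays, chosen after seeing the data, called 1, 2 and 5 of the 40 genes in these contrasts, in that order. Over its 9874 genes it called 1.87% higher and 2.02% lower with canertinib against fast food, 0.982% and 0.375% with fast food against chow, and 2.39% and 1.68% with canertinib against chow. The 1 of 40 for canertinib against fast food is no larger a share than that over all genes. Those calls are named below with their adjusted p.

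Got1, which moves the amino group between aspartate and glutamate in the cytosol, had a signal of 24396.5 with canertinib, 7436 with fast food and 7229 with chow at 2 months. At 5 months it had 6139.6 with canertinib, 2218 with fast food and 5202 with chow. The canertinib array was the highest of its study both times, and the 5-month fast-food array was the lowest of all 6. Canertinib over fast food gave 3.28-fold for Got1 at 2 months and 2.77-fold at 5 months. On the probe sets that stand for the 40 genes, it was the only 1 past 2-fold at both times, a pattern found in 0.951% of measured genes. Its limma log2 difference was 1.59 ± 0.37 (SE), with an adjusted p of 0.155 over all measured genes and of 0.0257 in the fit over genes exceeding the floor on every array. Against chow, the fast-food array differed by 0.04 in log2 at 2 months and by -1.23 at 5 months.

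Promoters are shown for Got1, Hal and Agxt, which gave the highest canertinib difference, the lowest diet difference and a diet difference past 2-fold at both times. They are the 250 bases before the RefSeq start site on build GRCm38.p6, read 5′ to 3′ on the gene's strand, at chr19:43524606-43524855 on the minus strand for Got1, chr10:93488518-93488767 on the plus strand for Hal and chr1:93134990-93135239 on the plus strand for Agxt. Capitals mark motif matches.
Got1: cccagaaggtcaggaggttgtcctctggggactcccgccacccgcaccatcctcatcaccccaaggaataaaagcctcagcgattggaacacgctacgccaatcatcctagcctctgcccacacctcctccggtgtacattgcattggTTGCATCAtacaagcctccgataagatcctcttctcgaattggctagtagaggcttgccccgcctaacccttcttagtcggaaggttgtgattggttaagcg
Hal: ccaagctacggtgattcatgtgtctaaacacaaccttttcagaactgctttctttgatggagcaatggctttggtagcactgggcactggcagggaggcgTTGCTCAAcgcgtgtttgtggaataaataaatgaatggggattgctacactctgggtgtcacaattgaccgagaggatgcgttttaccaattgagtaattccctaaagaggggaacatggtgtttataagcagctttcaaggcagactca
Agxt: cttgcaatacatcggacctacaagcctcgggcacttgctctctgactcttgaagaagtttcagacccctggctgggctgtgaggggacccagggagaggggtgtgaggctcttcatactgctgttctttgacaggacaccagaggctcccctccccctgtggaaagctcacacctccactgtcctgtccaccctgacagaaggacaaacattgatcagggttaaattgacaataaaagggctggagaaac

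The motifs were searched on both strands. TGATGNAA, the composite of C/EBP and ATF factors, matched Got1 as TTGCATCA from -102 to -95 before the start and was found in 3.45% of 32851 promoters. TTGCNNAA, the C/EBP motif, matched Hal as TTGCTCAA from -150 to -143 and was found in 9.56%. TGACG, the core bound by CREB and ATF factors, was found in 17.8%, and CAAAGTCCA, bound by HNF4, in 0.384%. Of 32 listed genes with a promoter sequence, 4 held TGACG, 3 held TTGCNNAA, 1 held TGATGNAA and 0 held CAAAGTCCA. Agxt matched none of the 4 in this window.

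Gpt2, the mitochondrial alanine aminotransferase, was lower with canertinib than with fast food at both times, unlike most of the list. Its log2 difference was -0.39 at 2 months and -0.69 at 5 months with canertinib against fast food, and 0.39 and 0.97 with fast food against chow. It was the only 1 of the 40 at least 1.5-fold higher on the 5-month fast-food array than on chow, and its 4 probe sets had 1 sign in the diet comparison at both times. Gpt, the cytosolic alanine aminotransferase, differed by 0.06 and 0.22 with canertinib against fast food on its brightest probe set, while a dimmer one above the floor on all arrays gave 1.88 and 1.34. Prodh and Aldh4a1, which oxidise proline to glutamate, were -0.77 and -0.85 with fast food against chow at 5 months, and Oat, which converts ornithine to glutamate semialdehyde, was -0.44.

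**Figure D2:**
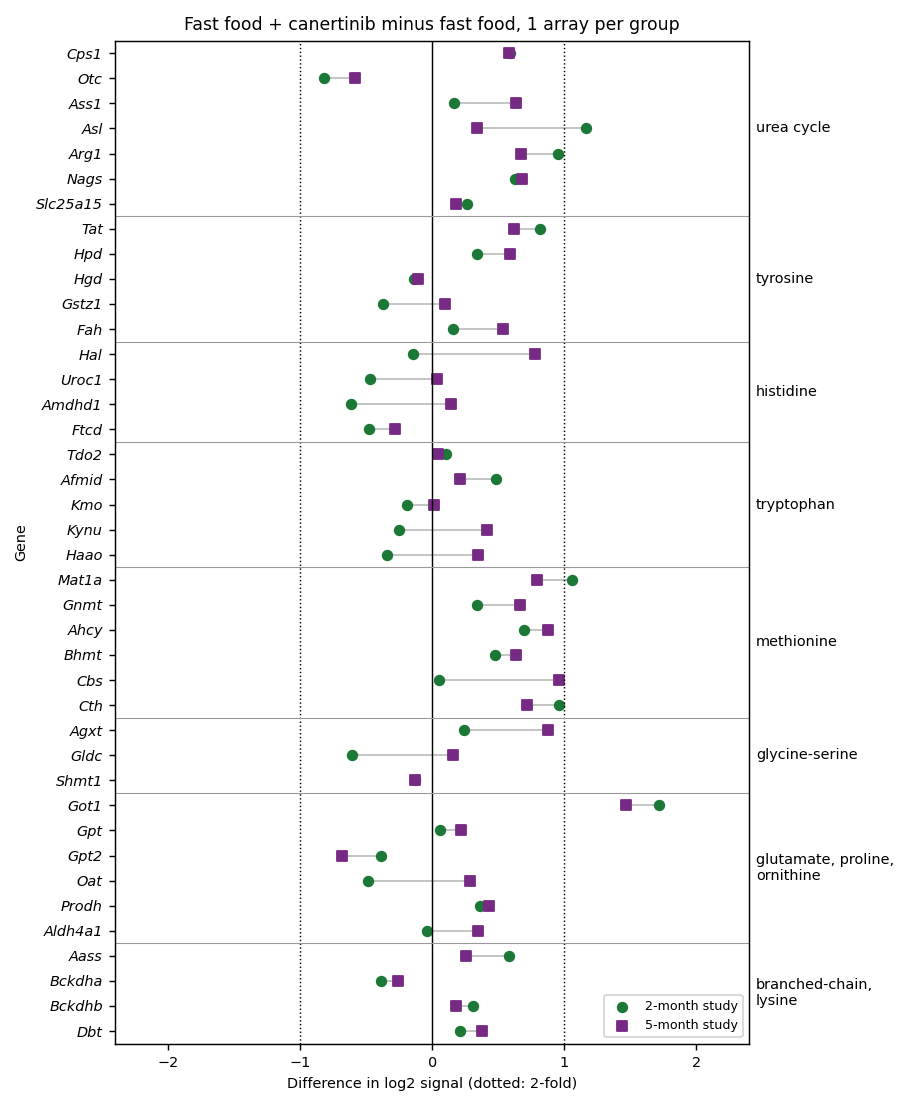
Log2 difference of canertinib minus fast food for each of the 40 genes at 2 and at 5 months, with dotted lines at 2-fold. Got1 lies past the line at both times, and 24 genes are above 0 at both, a count not taken over all measured genes.

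In the methionine cycle all 6 genes were higher with canertinib than with fast food at both times, on the probe sets that stand for them. The share of measured genes higher at both times was not counted. All 6 were at least 1.5-fold higher at 5 months, where 8.22% of measured genes were. Bright genes shifted too: others over 30000, the band of Gnmt, Ahcy and Bhmt, had a 5-month median of 0.36. Those from 10000 to 30000, the band of Mat1a and Cth, had 0.15. A second Cbs probe set above the floor on all arrays gave -0.02 at 2 months and 0.72 at 5 months. The group's median log2 difference was 0.59 at 2 months and 0.75 at 5 months. Mat1a, which makes S-adenosylmethionine, had a signal of 54714.5 with canertinib, 26310.1 with fast food and 18844.5 with chow at 2 months. At 5 months it had 36068 with canertinib, 20867 with fast food and 18929.8 with chow. The arrays kept the order canertinib, fast food, chow in both studies. Mat1a was 2.08-fold higher with canertinib than with fast food in the 2-month study, against 1.73-fold in the 5-month study, and quantile normalization put the 2-month log2 difference at 0.71 in place of 1.06. Against chow its limma log2 difference was 1.23 ± 0.25 (SE), with an adjusted p of 0.113 over all measured genes and of 0.0203 over genes exceeding the floor on every array.

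Bhmt remethylates homocysteine with betaine. Its signal was 69894 with canertinib, 50361 with fast food and 32665 with chow at 2 months, and 58723 with canertinib, 37875 with fast food and 43578 with chow at 5 months. The canertinib array was the highest in both studies. For Bhmt, canertinib over chow gave 2.14-fold at 2 months and 1.35-fold at 5 months. The 2-month log2 difference was 0.50 under quantile normalization and 0.56 under centring within signal bands, both short of 2-fold.

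Cbs and Cth carry homocysteine through transsulfuration to cysteine. Cbs had 7172 with canertinib, 6933 with fast food and 5527 with chow at 2 months, and 6885 with canertinib, 3545 with fast food and 7957 with chow at 5 months. Cth had 18261 with canertinib, 9370.2 with fast food and 12849.7 with chow at 2 months, and 8023 with canertinib, 4871.5 with fast food and 12165 with chow at 5 months. For both genes the 5-month fast-food array was the lowest of all 6. Against chow at 5 months, fast food was -1.17 for Cbs and -1.32 for Cth in log2. Gnmt, which uses S-adenosylmethionine to methylate glycine, and Ahcy, which splits S-adenosylhomocysteine, were -0.99 and -0.77 in the same comparison.

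In the urea cycle 6 of 7 genes were higher with canertinib than with fast food at both times on the probe sets that stand for them, and Otc was lower. The share of measured genes higher at both times was not counted. The group's median log2 difference was 0.59 at 2 months and 0.58 at 5 months, and with fast food against chow it was 0.02 and -0.64. Asl, which splits argininosuccinate into arginine and fumarate, had 13376.5 with canertinib, 5960.1 with fast food and 8775 with chow at 2 months. At 5 months it had 5719 with canertinib, 4530.1 with fast food and 7970.1 with chow. The fast-food array was the lowest in both studies. For Asl, canertinib over fast food gave 2.24-fold at 2 months and 1.26-fold at 5 months.

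Otc joins carbamoyl phosphate to ornithine. Its signal was 10633 with canertinib, 18746 with fast food and 17843 with chow at 2 months, and 8110.5 with canertinib, 12148 with fast food and 18882 with chow at 5 months. The canertinib array was the lowest in both studies. Against chow the canertinib array was 1.68-fold lower at 2 months and 2.33-fold lower at 5 months, and the limma log2 difference was -0.98 ± 0.22 (SE), with an adjusted p of 0.131 over all measured genes and of 0.0396 over genes exceeding the floor on every array. A second Otc probe set above the floor on all arrays gave -0.95 and -0.96 for that comparison, while another, above the floor on 2 arrays, gave -0.40 and 0.02. Under the mean of its probe sets the 5-month difference was -0.72, short of 2-fold.

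Cps1, which makes carbamoyl phosphate from ammonia, differed by 0.59 at 2 months and 0.58 at 5 months with canertinib against fast food. Arg1, which releases urea from arginine, differed by 0.95 and 0.67. Nags, which makes the activator of Cps1, differed by 0.63 and 0.68, and Slc25a15, the mitochondrial ornithine carrier, by 0.26 and 0.18. A second Slc25a15 probe set above the floor on all arrays gave the other sign, -0.52 and -0.17. All 4 genes were below chow on the 5-month fast-food array, by -0.82 for Cps1, -0.55 for Arg1, -0.69 for Nags and -0.33 for Slc25a15. Ass1, which makes argininosuccinate, had signals of 276 to 428 on the 6 arrays, close to the floor, on its only probe set with 1 symbol, so its differences of 0.17 and 0.63 rest on dim signals.

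**Figure D3:**
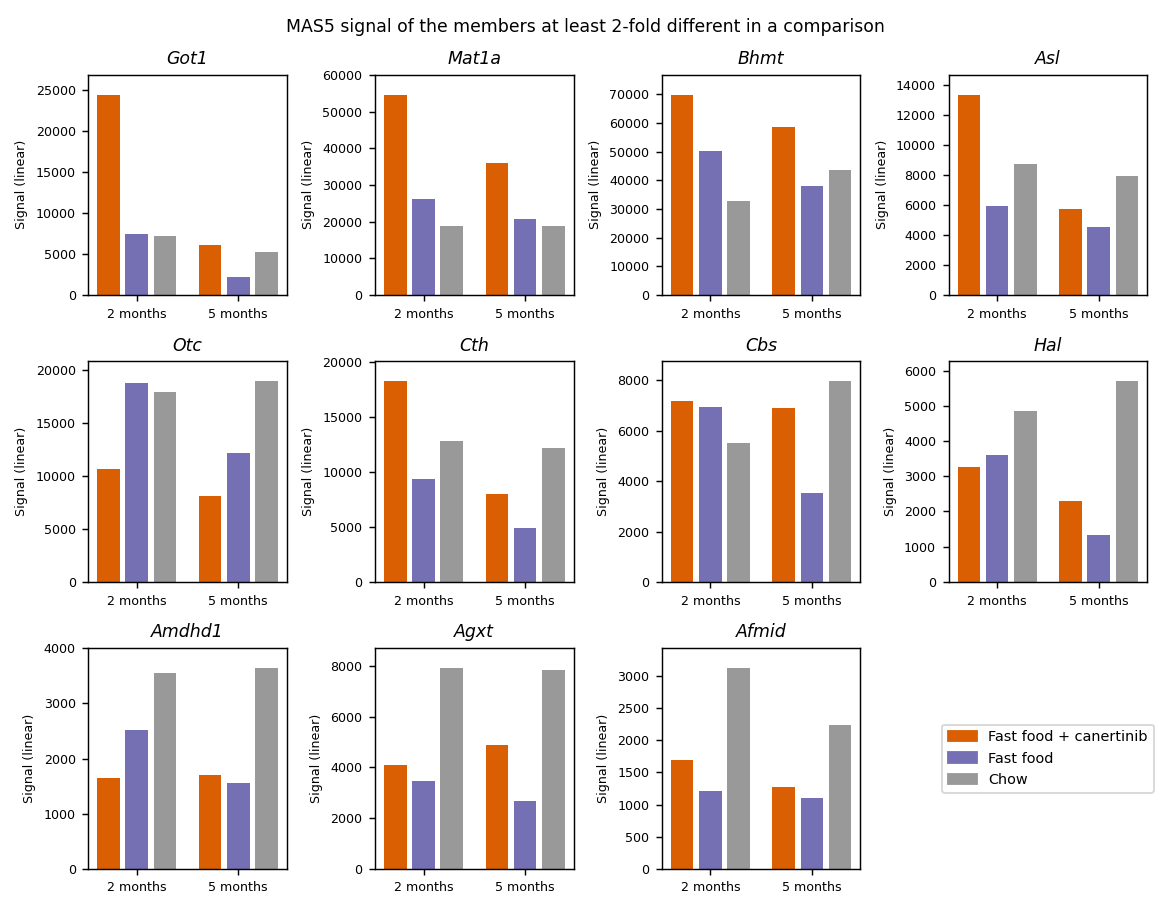
Linear signal of the 11 genes at least 2-fold different in a comparison, 1 bar per array with no replicates, with fast food and canertinib, fast food alone and chow from left to right in each study. For Got1 the canertinib array is the highest in each study, and for Agxt and Afmid both fast-food arrays lie below their chow array.

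The histidine pathway had the lowest diet difference of the 40 genes. Its 4 genes were all lower with fast food than with chow at 5 months, with a median of -0.90, and all lower with canertinib than with chow at both times, with medians of -0.50 and -0.97. Hal, which opens the pathway by deaminating histidine, had 3254 with canertinib, 3596 with fast food and 4846.5 with chow at 2 months. At 5 months it had 2303 with canertinib, 1343.5 with fast food and 5693 with chow. The chow array was the highest in both studies. Fast food was 4.24-fold lower than chow at 5 months and 1.35-fold lower at 2 months, and the limma log2 difference was -1.26 ± 0.37 (SE, adjusted p = 0.38).

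Amdhd1 hydrolyses imidazolonepropionate further down the same pathway. It had 1648 with canertinib, 2519 with fast food and 3559.9 with chow at 2 months, and 1704 with canertinib, 1547 with fast food and 3636 with chow at 5 months. On the probe sets that stand for the 40 genes, Amdhd1 was the only 1 at least 2-fold lower with canertinib than with chow at both times. Of measured genes 0.793% were. Further probe sets of Shmt1 and Afmid were also past 2-fold there. The Amdhd1 log2 differences were -1.11 and -1.09. Under the mean of its probe sets the 2-month difference was -0.94, short of 2-fold. Its limma adjusted p for canertinib against chow was 0.113 over all measured genes and 0.0241 over genes exceeding the floor on every array. The start sites of Hal and Amdhd1 lie 51.3 kb apart on chromosome 10 with 0 protein-coding genes between them. Uroc1, the urocanase, and Ftcd, which passes the formimino group to folate, were -0.49 and -0.56 with fast food against chow at 5 months.

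Agxt and Afmid were the 2 of 40 genes at least 2-fold lower with fast food than with chow at both times, where 0.286% of measured genes were. Under the mean of its probe sets Afmid gave -0.65 at 2 months and -0.68 at 5 months in log2, short of 2-fold at both. Agxt, the peroxisomal enzyme that turns glyoxylate into glycine, had 4105 with canertinib, 3468 with fast food and 7907 with chow at 2 months. At 5 months it had 4883 with canertinib, 2666 with fast food and 7852 with chow. Both fast-food arrays were the lowest of their study and both chow arrays the highest. Fast food was 2.28-fold lower than chow at 2 months and 2.94-fold lower at 5 months, and the limma log2 difference was -1.37 ± 0.18 (SE), with an adjusted p of 0.128 over all measured genes and of 0.0119 over genes exceeding the floor on every array.

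Afmid, which hydrolyses N-formylkynurenine in tryptophan breakdown, had 1694.5 with canertinib, 1216 with fast food and 3119.9 with chow at 2 months, and 1275 with canertinib, 1103 with fast food and 2242 with chow at 5 months. The fast-food array was again the lowest and the chow array the highest in both studies, and with canertinib against chow the added limma fit gave an adjusted p of 0.0323 for Afmid and 0.0481 for Agxt. Its limma log2 difference for fast food against chow was -1.19 ± 0.15 (SE), with an adjusted p of 0.117 over all measured genes and of 0.0168 over genes exceeding the floor on every array. Its probe sets above the floor were lower with fast food than with chow at both times but differed in sign between canertinib and fast food. The other tryptophan genes were closer to chow at 5 months, with -0.51 for Tdo2, which opens the ring, -0.25 for Kmo, -0.23 for Kynu and -0.74 for Haao, enzymes that carry kynurenine on toward NAD.

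**Figure D4:**
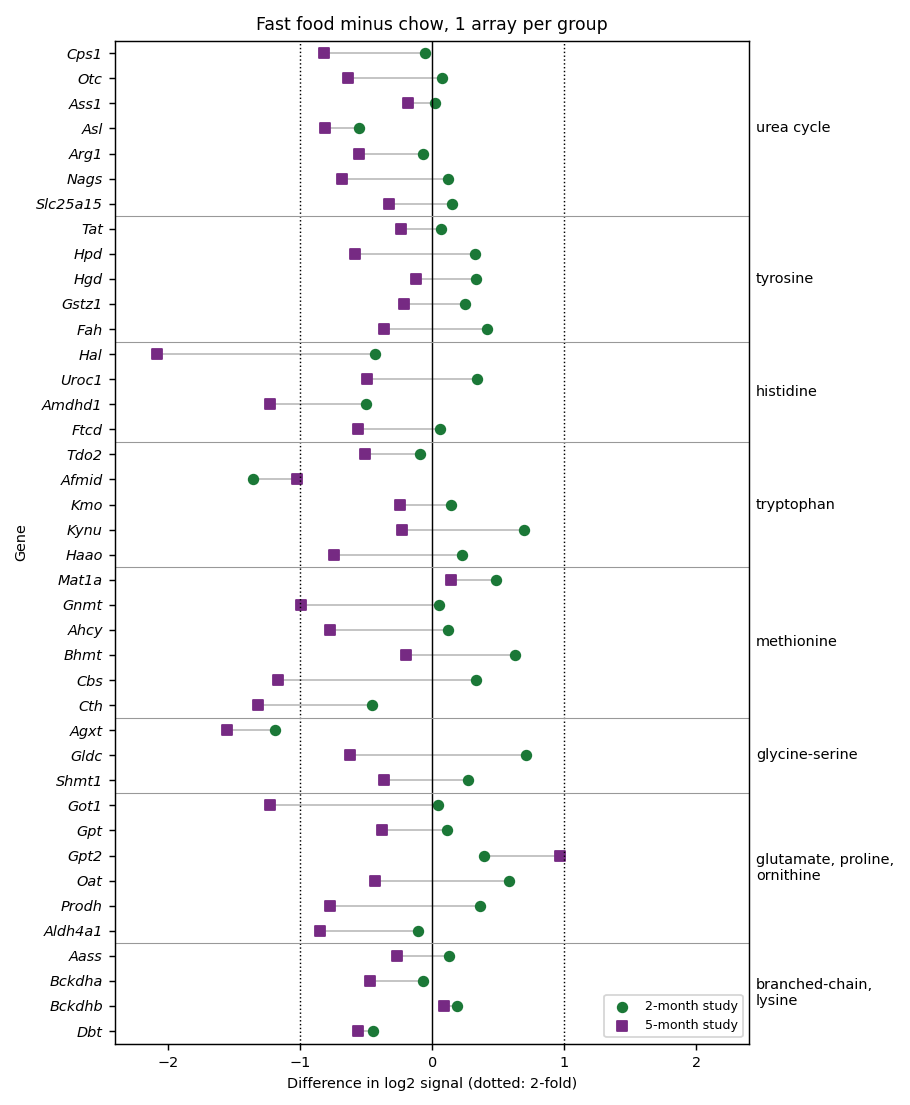
Log2 difference of fast food minus chow for each of the 40 genes at 2 and at 5 months, with dotted lines at 2-fold. At 5 months 37 genes lie below 0 and Hal lies farthest below, and at 2 months 28 lie above 0.

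In the tyrosine pathway all 5 genes were above chow on the 2-month fast-food array and below it on the 5-month one, with medians of 0.32 and -0.23. Tat, which starts the pathway and is a classic glucocorticoid target, differed by 0.82 at 2 months and 0.62 at 5 months with canertinib against fast food. In that comparison Hpd, the dioxygenase, differed by 0.34 and 0.59, and Fah, the last hydrolase, by 0.16 and 0.53. Gstz1, the isomerase, differed by -0.37 and 0.10, and Hgd, which opens the ring, by -0.14 and -0.11. Of the glycine genes, Gldc, the decarboxylase of glycine cleavage, was 0.71 above chow on the 2-month fast-food array and -0.62 at 5 months. Shmt1, which interconverts serine and glycine, gave 0.27 and -0.37. With canertinib against fast food, its brightest probe set gave -0.13 at both times. Another of its 4 probe sets, above the floor on all arrays, gave -1.53 at 2 months and -1.75 at 5 months. With canertinib against chow that probe set gave -1.10 and -2.13, and the brightest gave 0.14 and -0.50. Bckdha, Bckdhb and Dbt, subunits of the branched-chain ketoacid dehydrogenase, gave -0.47, 0.09 and -0.57 with fast food against chow at 5 months. Aass, the first lysine enzyme, gave -0.27 there.

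Bright genes shifted together on these arrays. Among genes with a mean signal over 30000, the 69 others had a median log2 difference of 0.28 at 2 months and 0.36 at 5 months with canertinib against fast food, and the 7 listed genes 0.47 and 0.63. In the band from 10000 to 30000 the 9 listed genes had -0.14 and 0.35, and the others -0.03 and 0.15. From 3000 to 10000 the 17 listed genes had -0.04 and 0.22, and the others -0.14 and 0.03. The listed genes of these 2 bands thus had medians below 0 at 2 months, as had the others. With fast food against chow, the others over 30000 gave 0.24 at 2 months and -0.25 at 5 months. The listed genes over 30000 gave 0.05 and -0.59. In the band from 3000 to 10000 the 17 listed genes had -0.56 with fast food against chow at 5 months, and 981 others -0.06. The summed signal of 6 hepatocyte markers, each above the floor on all arrays, was 409935 with canertinib, 338641 with fast food and 272360.0 with chow at 2 months, and 337110 with canertinib, 254236 with fast food and 310392 with chow at 5 months. Its part in the differences of the listed genes was not tested.

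**Figure D5:**
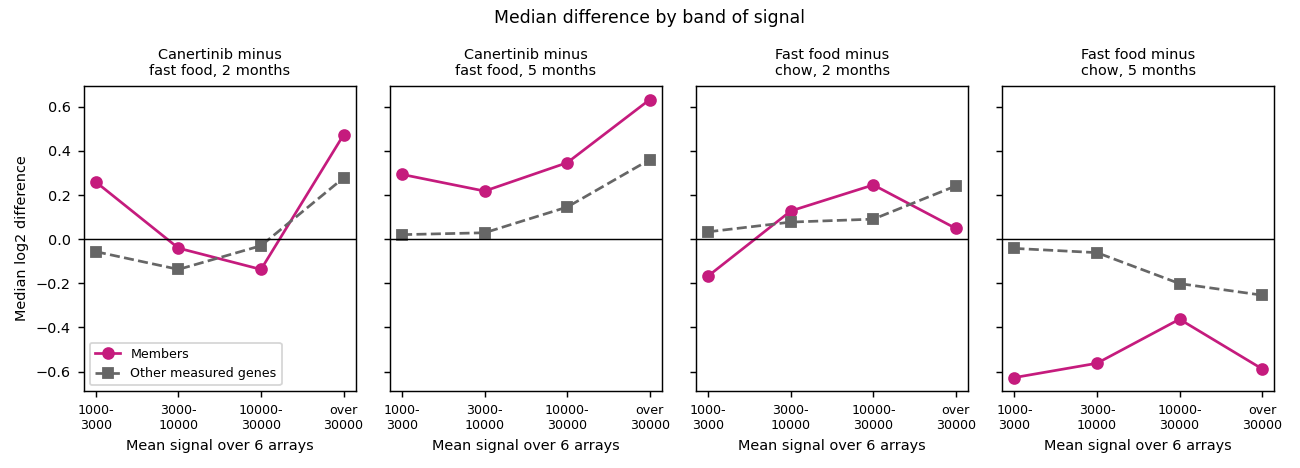
Median log2 difference of the listed genes and of other measured genes in bands of mean signal over the 6 arrays, in 4 comparisons. In the brightest band the other genes also lie away from 0, at 0.36 with canertinib minus fast food at 5 months.

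Markers of other cells moved with the groups as well. The summed signal of 6 neutrophil markers, of which 1 to 3 were at the floor on each array, was 13501.5 with canertinib, 2156 with fast food and 2336 with chow at 2 months, and 15407 with canertinib, 2159 with fast food and 2641 with chow at 5 months. That of 8 macrophage markers was 29652 with canertinib, 27636 with fast food and 11978 with chow at 2 months, and 36478 with canertinib, 38376 with fast food and 12524.5 with chow at 5 months. That of 7 stellate cell markers was 17239 with canertinib, 17888 with fast food and 10289 with chow at 2 months, and 13213 with canertinib, 25479 with fast food and 8586 with chow at 5 months. Periportal markers, 10 genes of the zone that holds most of the urea cycle, summed to 112786 with canertinib, 102642 with fast food and 111528 with chow at 2 months. At 5 months they summed to 97728 with canertinib, 86494 with fast food and 121139 with chow. With canertinib against fast food, 5 of them were higher and 5 lower at 2 months, and 6 higher and 4 lower at 5 months. Pericentral markers, 11 genes, summed to 141025 with canertinib, 129894 with fast food and 113725 with chow at 2 months. At 5 months these 11 summed to 137079 with canertinib, 103351 with fast food and 130472 with chow. With canertinib against fast food, 4 of the 11 were higher and 6 lower at 2 months, with a median log2 difference of -0.24. At 5 months 9 were higher and 2 lower, with a median of 0.44. Of measured genes 46.3% were higher at 2 months and 45.3% at 5 months. The part of these cells and zones in the differences was not tested.

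Between the 2 chow arrays, which differ in age and study, 0 of the 40 genes were at least 2-fold higher at 5 months and 0 were 2-fold lower, against 1.28% and 1.32% of measured genes. At least 1.5-fold higher was 1, Kynu, against 5.53%, and 0 were 1.5-fold lower, against 6.7%. By any amount 30 were higher, against 45.8%, and 10 lower, against 46.2%. Over all measured genes, the standard deviation of the log2 differences of this pair, divided by the square root of 2 to stand for 1 array, was 0.28. Of 12 genes with several probe sets that exceeded the floor on 1 or more arrays, all of them had 1 sign for 5 at 2 months and 6 at 5 months with canertinib against fast food, and for 6 and 9 with fast food against chow. Over probe sets that exceeded the floor on all 6, a stricter rule adopted after those counts were seen, the numbers were 6 and 7, and 6 and 9, of 10 genes.

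Among further genes of these pathways, transporters held the gene with the highest canertinib difference. Slc3a1, the heavy chain of a cystine and basic amino acid transporter, had 8939 with canertinib, 1019.8 with fast food and 1876 with chow at 2 months, and 5607 with canertinib, 886 with fast food and 1799 with chow at 5 months. Its canertinib arrays were above all other arrays. It rose with canertinib against fast food by 2.90 ± 0.18 (SE) in the limma log2 fit, with an adjusted p of 0.0124. Of 14 transporters 1 rose and 0 fell in that contrast, against 0.407% and 0.307% of measured genes. Against chow 2 rose, where 0.558% of measured genes were called higher. They were Slc3a1 with a limma adjusted p of 0.0199 and Slc1a4, a neutral amino acid transporter at the floor on both chow arrays, with 0.0414.

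Phgdh, which opens serine synthesis, had 656 with canertinib, 4081 with fast food and 4871 with chow at 2 months, and 444 with canertinib, 1164 with fast food and 3887 with chow at 5 months. The canertinib arrays were the lowest of their study. It fell with canertinib against chow, with a limma log2 difference of -3.01 ± 0.36 (SE) and an adjusted p of 0.0414. Phgdh was the only 1 of 14 further glycine and serine genes called there, where 0.207% of measured genes were called lower. Gclc, the catalytic subunit of glutathione synthesis, was -2.48 and -1.40 in log2 with canertinib against fast food, with a limma adjusted p of 0.0571. Csad, which makes hypotaurine, was -2.27 and -1.12 with canertinib against chow, and Aadat, an aminotransferase of kynurenine, was -1.01 and -1.34, with limma adjusted p of 0.089 and 0.0859.

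Of 19 further branched-chain and lysine genes, 16 were lower with canertinib than with fast food at 2 months, against 46.6% of measured genes. At 5 months 16 were, against 46.5%. Their medians were -0.53 and -0.29. In limma 0 passed the adjusted threshold and 10 were lower at an unadjusted p under 0.05, against 7.53% of measured genes. Of 8 further urea cycle and ammonia genes, 6 aromatic and histidine, 7 tryptophan and NAD, 11 methionine and sulfur, and 7 glutamate, proline and aspartate genes, 0 passed that threshold in any of the 3 contrasts, with 0, 1, 4, 6 and 2 at an unadjusted p under 0.05 for canertinib against fast food. Of 13 regulators, 0 passed in any contrast and 3 were under that unadjusted p for canertinib against fast food. In that contrast 7.24% of measured genes were higher and 7.53% lower at the same unadjusted p. Cebpb, a C/EBP factor, was 1.21 and 1.17 in log2 with canertinib against chow, with a limma adjusted p of 0.097.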

How the data were processed

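Liver RNA was measured on 6 arrays of 45101 probe sets, 1 per group. The authors deposited linear signal intensity per probe set, made with MAS5 per the submitters' processing notes. No version of it is named in those notes. Gene names came from the platform annotation: 34958 probe sets had 1 symbol, 932 several and 9211 none. The probe set with 1 symbol and the highest mean signal stood for each gene. Values under 221.4 (the 50th percentile over all arrays) were set to it, and log2 differences were taken between arrays of a study; a 2-fold difference was counted. Values were used as scaled by the authors. With 1 array per group no test was possible within a study, so the count of arrays limits the precision. limma 3.58.1 in R 4.3.3 fitted treatment and study over all measured genes, two-sided, with Benjamini-Hochberg adjustment at 0.05; the script was tested on simulated data. Other steps used Python 3.11.15, NumPy 2.4.6, pandas 2.3.3 and matplotlib 3.10.9. Alternatives covered scaling, floor, probe set choice and threshold. The members, lists and tests were chosen with earlier results of these data known. Signals are given for genes past 2-fold in any of the 6 comparisons; of other pathway genes, those above the floor on all arrays and past 2-fold at both times in 1 comparison are named, as are summed markers. Genes without a probe set of 1 symbol were not analysed here.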

Additional observations from a re-analysis of the deposited data

Results flagged for a closer look

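Several genes had log2 differences of opposite sign at the 2 times, at least 2-fold apart, and none of these differences between times was tested. With fast food against chow, the log2 differences at 2 and at 5 months were 0.049 and -0.99 for Gnmt, 0.33 and -1.17 for Cbs, 0.71 and -0.62 for Gldc. They were 0.041 and -1.23 for Got1, 0.58 and -0.44 for Oat, and 0.36 and -0.77 for Prodh. The median over the 40 genes was 0.12 at 2 months and -0.56 at 5 months. With canertinib against chow, they were 0.61 and -0.48 for Asl, 0.51 and -0.60 for Cth, and 0.72 and -0.35 for Prodh, and the median was 0.19 at 2 months and -0.22 at 5 months. A second Cbs probe set above the floor on all arrays kept its sign with fast food against chow, at -0.41 and -0.91. In that comparison the 2-month values of Gnmt and Got1 lay within 0.28, the spread of the chow pair for 1 array.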

How the results depend on the processing

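No paired analysis was possible because the labels give the arrays no shared replicate numbers; treatments were matched only by study, a term of the limma fit, and without that term, or without the variance trend, limma again called 0 genes. With 1 array per group none could be left out. The median kept its sign in all 6 comparisons under the 9 alternatives that give one. Each covered 40 genes, except 37 where probe sets were left out by name ending. The median ran from 0.05 to 0.24 and from 0.23 to 0.42 with canertinib against fast food at 2 and 5 months. With fast food against chow it ran from 0.04 to 0.22 and from -0.58 to -0.42. All 40 genes exceed the floor on all 6 arrays. A floor at the 40th percentile and the filter on all arrays therefore could not change a median. The floor at the 60th percentile, 321.7, reached only Ass1. Without a floor 16 was added to each signal, which is small beside the signals of genes other than Ass1. At a 1.5-fold threshold, 9 genes were higher and 3 lower with canertinib against fast food at 2 months, and 14 and 1 at 5 months; 3 were higher with fast food against chow at 2 months, and 1 higher and 18 lower at 5 months; 11 higher and 4 lower with canertinib against chow at 2 months, and 1 and 8 at 5 months. At 2-fold, genes higher with fast food against chow at 5 months numbered 1 under quantile normalization, under the mean of probe sets and under centring within signal bands, and 0 as reported. Genes higher with canertinib against fast food at 5 months numbered 2 under median centring and when probe sets whose names end in _s_at, _x_at or _a_at were left out. Under the mean of probe sets, genes lower with fast food against chow at 2 months numbered 1 and those lower with canertinib against chow at 2 months 0. Centring within signal bands gave 1 gene higher with canertinib against chow at 5 months. Centring within signal bands and the limma fit over genes exceeding the floor on every array, which called 1, 2 and 5 genes where 1.87% of all its genes were called higher and 2.02% lower, 0.982% and 0.375%, and 2.39% and 1.68%, were chosen after seeing the data. With those endings left out, Otc with canertinib against chow at 5 months was 0.020, from a probe set near the floor, in place of -1.22. Except where stated, the cause was not tested. Dim probe sets such as that of Ass1 limit what can be read from small differences.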
